A study of Mus musculus with 2 samples.

Results

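Delta-protocadherins are the family of non-clustered protocadherins to which 9 mouse genes were assigned here. They were taken by symbol from both count matrices, where each symbol named 1 feature, so the members were 9 of 28001 features of the septal library and 9 of 32286 of the vesicle library. The delta-1 subgroup held 4 of them (Pcdh1, Pcdh7, Pcdh9 and Pcdh11x) and the delta-2 subgroup 5 (Pcdh8, Pcdh10, Pcdh17, Pcdh18 and Pcdh19). The series addresses how Pcdh8 and the transcription factor Dbx1 act in the developing cortex, and it holds 2 single cell libraries of embryonic mouse brain of the strain C57BL/6J. For the first, cells of the septum and its surroundings were pooled from 8 PGKCre ; Rosa26YFP embryos at E11.5 and 4 Dbx1Cre ; Rosa26tdTomato embryos at E12.5, although its genotype label reads wild-type. In the former line Cre acts in most cells, and in the latter only cells with a history of Dbx1 expression gain the red tracer. For the second, whole telencephalic vesicles of 3 wild-type embryos from 2 litters were pooled. It is labelled E12, and the authors give the age of these embryos as E11.5 to E12. Each library is thus 1 sample, in which embryos cannot be told apart, and levels are compared between cell classes within a library, without a significance test.

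Protocadherins are transmembrane proteins of the cadherin superfamily that bind copies of themselves on neighbouring cells. The delta family lies scattered over the genome, unlike the clustered protocadherins, and its cytoplasmic tails connect to the actin cytoskeleton. In the embryonic brain its members are known for region-specific and layer-specific expression, and they take part in cell sorting, migration and axon outgrowth.

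The members differed widely in gene size (GRCm38/mm10, GENCODE M21 models). The shortest was Pcdh8 on chromosome 14, at chr14:79766775-79771312 on the minus strand, which spans 4.54 kb and is covered by exons of its transcripts over its whole length. Pcdh9, on the same chromosome at chr14:93013410-93890679 (minus strand), spans 877 kb, of which 0.773% is exonic. Pcdh17 is the third member there, at chr14:84443563-84539002 (plus strand, 95.4 kb). Chromosome 3 carries Pcdh10 (chr3:45378398-45435623, plus strand, 57.2 kb) and Pcdh18 (chr3:49743296-49757325, minus strand, 14.0 kb). Chromosome X carries Pcdh11x (chrX:120290259-120910619, plus strand, 620 kb) and Pcdh19 (chrX:133582860-133688987, minus strand, 106 kb). Pcdh7 lies at chr5:57717967-58133230 (plus strand, 415 kb), and Pcdh1 spans 26.1 kb. Of the 9 members, Pcdh18 overlapped no other annotated gene, and Pcdh7 overlapped 15, so UMIs of Pcdh7 may include some of its neighbours.

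RefSeq promoter sequences (GRCm38.p6) were at hand for 7 members, and the 250 bases before the start site are shown for 3 whose levels followed different courses in these cells, as described below. Pcdh8 was highest in septal GABAergic-like neurons, Pcdh17 was higher in neurons and septal Pcdh19 in progenitors. Capitals mark CCAAT or its complement ATTGG, the core of the CCAAT box.
Pcdh8: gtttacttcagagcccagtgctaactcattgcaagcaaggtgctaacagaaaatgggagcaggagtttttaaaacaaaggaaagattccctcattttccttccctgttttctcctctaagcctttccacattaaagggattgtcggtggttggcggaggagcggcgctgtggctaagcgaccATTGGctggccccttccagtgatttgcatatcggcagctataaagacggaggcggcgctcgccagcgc
Pcdh17: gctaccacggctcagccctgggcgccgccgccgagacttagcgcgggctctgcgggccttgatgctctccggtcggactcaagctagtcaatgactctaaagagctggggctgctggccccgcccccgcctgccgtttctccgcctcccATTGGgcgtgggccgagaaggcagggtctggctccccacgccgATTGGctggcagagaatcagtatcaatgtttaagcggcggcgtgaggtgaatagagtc
Pcdh19: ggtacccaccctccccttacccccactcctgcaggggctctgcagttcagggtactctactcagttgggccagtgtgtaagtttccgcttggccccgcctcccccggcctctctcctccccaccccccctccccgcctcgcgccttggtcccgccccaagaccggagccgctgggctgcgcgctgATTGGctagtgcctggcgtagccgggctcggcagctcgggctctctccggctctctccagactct
These windows lie at chr14:79771313-79771562 (minus strand), chr14:84443313-84443562 (plus strand) and chrX:133688994-133689243 (minus strand). An antisense gene runs through the first (Gm9748) and the third (Gm26851). CCAAT, on either strand, was in the windows of 6 of the 7 members and not in that of Pcdh7, and it is held by 33.8% of all 32851 promoters of this length. It was chosen after the letters were seen. Of the other motifs searched, the E-boxes CAGATG and CAGCTG and the homeodomain core TAATTA (both strands) were in none of the 7 windows, where 14.4%, 13% and 4.84% of all promoters hold them. The dinucleotide CG occurred between 7 times (Pcdh7) and 23 times (Pcdh18), against a median of 6 over all promoters.

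After quality filters 5384 cells remained in the septal explants, with a median of 12868.5 UMIs (unique molecular identifiers, each 1 caught transcript molecule), and 11758 in the telencephalic vesicle, with a median of 9058.5. Each library gave 29 clusters, which were named from marker genes and are called "-like", since the authors' annotation was not used here. Apical progenitor (AP)-like cells, which line the ventricle, numbered 3329 and 6852, basal progenitor (BP)-like cells 556 and 622, and neuron-like cells 1002 and 1600. The vesicle also held 594 mesenchyme-, endothelium- and macrophage-like cells, and the septal explants only 44 cells in such a class (macrophage-like), too few to compare. Unnamed clusters of both libraries are in none of these classes, among them a septal cluster of 142 cells led by Cyb5r3 and a vesicle cluster of 137 led by Tac1. Named neural classes of the vesicle held 9651 of its 11758 cells in all. Erythroid-like cells (26 and 400) served as the reference for free RNA. Since the names were taken from marker genes, the levels of these markers describe the classes and do not check their names. AP-like cells had 229 and 396 CPM (UMIs of a gene in 1000000 UMIs of the class) of Sox2, and BP-like cells 359 and 438 of Eomes. Gad1, Trp73, Cdh5 and C1qb were highest in GABAergic-, Cajal-Retzius-, endothelium- and macrophage-like cells of the vesicle, respectively. Septal glutamatergic-like neurons of the septal explants had 549 CPM of Tbr1, a marker used here for pallial glutamatergic neurons, and 109 of Slc17a6. The authors describe septal-derived excitatory neurons as negative for Tbr1, so this class may not match theirs. The 44 macrophage-like cells of the septal explants had 1197 CPM of Col3a1, a mesenchyme marker, against 284 of C1qb. They may thus include mesenchyme-like cells. A single barcode sequence occurred in both libraries.

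Both libraries count the 3′ ends of transcripts, and the vesicle values may hold intronic reads. Between the libraries, the log2 ratio of vesicle over septal CPM in neural cells followed gene span, with a median of −0.50 over 3174 genes of up to 10 kb and 3.14 over 414 genes above 300 kb. The shortest member, Pcdh8 (−0.64), and the longest, Pcdh9 (4.25), stood at either end with Pcdh1 (−0.88) and Pcdh7 (3.29), and Pcdh18 (0.83) and Pcdh19 (2.0) lay between. Pcdh17 (3.15) and Pcdh10 (1.81) were above the 90th percentile of genes of their span class (1.73). Pcdh1, in the same span class, was below its 10th percentile (−0.82), and Pcdh11x (1.35) was below the 10th of its own (1.48). Version 7.1.0 of Cell Ranger counts introns by default and the setting used was not stated, so its part in these ratios was not tested, and no level is compared between libraries below.

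**Figure D1:**
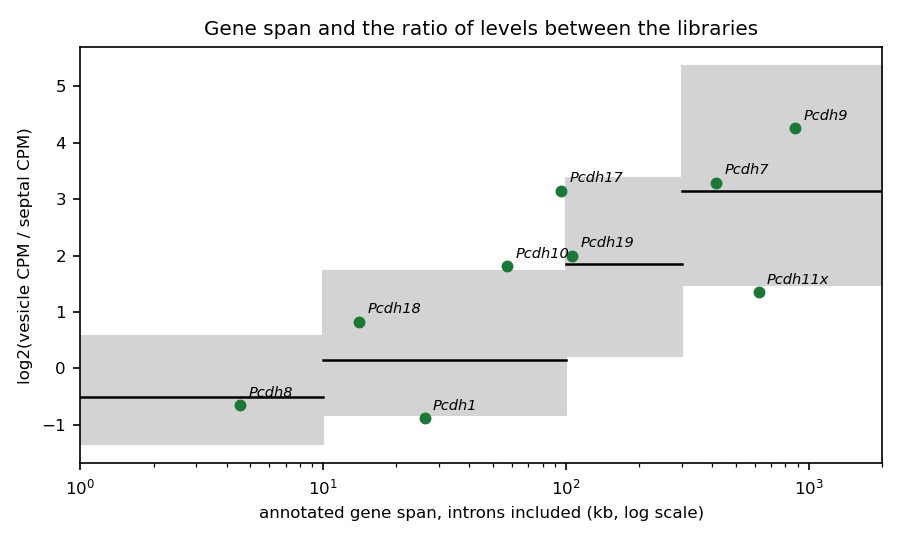
Log2 ratio of vesicle over septal CPM in neural cells (vertical axis) against gene span in kb (log axis) for the 9 members (points), with the median (lines) and the 10th to 90th percentiles (grey) of all genes in 4 span classes. The median of all genes climbs from −0.50 to 3.14, and Pcdh9, the longest member, lies highest at 4.25.

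Detection was sparse and differed between members. Each septal cell was thinned at random to 8000 UMIs and each vesicle cell to 3500, which left out 511 and 1145 shallower cells. At these depths Pcdh19 was found in 17.8% of septal neural cells (95% exact interval 16.7 to 18.9), the most common member there, and Pcdh1 in 1.19% (0.905 to 1.54). In the vesicle Pcdh9 was found in 37.1% of neural cells (36.1 to 38.1) and Pcdh1 in 0.505% (0.373 to 0.669). In each library 7 of the 9 members were held by at least 5% of neural cells. Erythroid-like cells of the vesicle gave shares of 0 to 1.40%, and shares in that range are read as background. Of 26 septal erythroid-like cells, 2 held Pcdh19 and 1 held Pcdh8. These septal erythroid-like cells also had 27.4 CPM of Eomes and 34.3 of Tbr1, where septal AP-like cells had 3.21 and 5.25. They may thus carry neural RNA beyond free RNA, which was not tested and limits the septal reference. Exact intervals here and below cover counting error only.

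**Figure D2:**
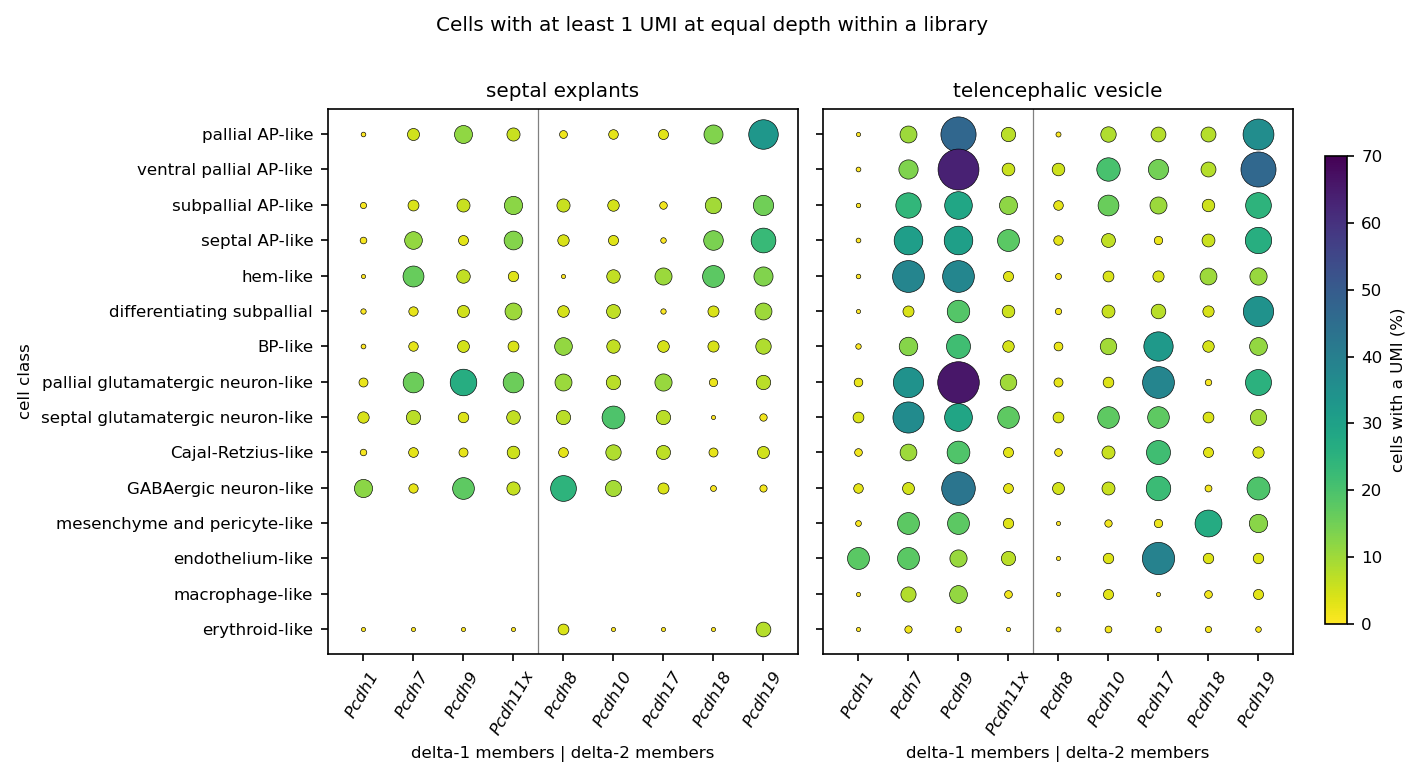
Share of cells with at least 1 UMI of each member (percent, by the colour and size of each point) in cell classes (rows), members in columns, with cells thinned to 8000 UMIs (septal explants, left) or 3500 (vesicle, right). Region-free APs, macrophage-like cells of the septal explants and classes with too few cells at this depth are not shown. Pcdh8 reaches 24.8% in septal GABAergic-like cells, and Pcdh9 reaches 65.7% in pallial glutamatergic-like cells of the vesicle.

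Among the delta-1 members, Pcdh1 was the rarest and was seen in neurons and vessels. Septal levels reached 14.1 CPM (9.32 to 20.6) in GABAergic-like neurons and 3.30 (2.02 to 5.10) in pallial glutamatergic-like neurons, and 0.264 to 1.63 CPM in the AP-like classes. In the vesicle the neuron-like classes held 2.46 to 8.61 CPM and the AP-like classes 0.0705 to 0.691. The 28 endothelium-like cells had 30.1 CPM (20.03 to 43.57), the highest value of the gene. Erythroid-like cells held no UMI of Pcdh1, and the limits that a count of 0 allows (3 UMIs of the class) are 4.12 and 1.04 CPM. These cover the AP-like values of either library, so expression in APs was not separable from the erythroid-like reference. The septal limit also lies above the 3.30 CPM of septal pallial glutamatergic-like neurons, for which the same holds.

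Pcdh7, known to bind its copies on other cells and to engage phosphatase PP1, was, among the named classes, highest in hem-like and septal-like APs and in glutamatergic neurons. Septal AP-like values were 20.6 CPM (15.3 to 27.1) in the hem-like cells, which flank the choroid plexus and secrete Wnt signals. The septal-like APs had 17.3, the subpallial-like ones 5.40 and the pallial-like ones 4.51. Septal pallial glutamatergic-like neurons had 26.4 CPM (22.5 to 30.8) and GABAergic-like neurons 2.1 (0.571 to 5.37). In the vesicle hem-like cells had 178 CPM (171 to 185), with Pcdh7 in 38.3% of cells, followed by septal-like APs at 133 and subpallial-like APs at 94.4. The hem-like class was not uniform. A cluster led by Ttr, a gene of the choroid plexus, held 321 CPM and the rest of the class 115. Pallial and septal glutamatergic-like neurons of the vesicle had 209 (198 to 221) and 226 CPM (186 to 273), intervals that overlap, and GABAergic-like neurons 25.4 (20.8 to 30.6).

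Pcdh9, the longest gene of the family, was highest in pallial glutamatergic-like neurons in both libraries. In the vesicle its CPM was 1122 (1096 to 1149) in pallial glutamatergic-like neurons, 581 (569 to 593) in ventral pallial-like APs and 360 (353 to 367) in pallial-like APs, and 195 (191 to 200) in subpallial-like APs. At equal depth it was found in 65.7% of the neurons and 63.6% of the ventral pallial-like APs. In the telencephalon Dbx1 is expressed in ventral pallial progenitors and in the septum, as the authors describe. The septal explants showed 54.8 CPM (49.1 to 61.0) in pallial glutamatergic-like neurons, 15.2 (13 to 17.7) in pallial-like APs and 4.24 (3.17 to 5.56) in septal-like APs. AP-like cells of the septal explants without a region name stood above these, with 36.5 CPM (33.1 to 40.2). BP-like cells were low in both, at 6.68 CPM and 142 CPM.

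Pcdh11x, an X-linked gene, was highest in septal-like cells of the vesicle. Its level was 118 CPM (89.6 to 153) in 53 septal glutamatergic-like neurons and 70.4 (67.0 to 73.9) in septal-like APs, against 12.9 (11.2 to 14.9) in hem-like cells. Among septal classes the pallial glutamatergic-like neurons led with 27.4 CPM (23.4 to 31.9), and septal-like and subpallial-like APs followed with 17.9 and 15.9, whose intervals overlap. Hem-like cells (4.93) and BP-like cells (5.62) were lowest among neural classes there. A subpallial-like cluster led by Trh, of the Nkx2-1 territory, reached 47.6 CPM.

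Among the delta-2 members, Pcdh8, which controls adhesion through its activity-dependent removal from the membrane in neurons, had its highest septal value in GABAergic-like neurons. There it stood at 52.9 CPM (43.1 to 64.3), and 37 of 149 cells held it at equal depth, 24.8% (18.1 to 32.6). Pallial glutamatergic-like neurons had 16 CPM (13 to 19.5), septal glutamatergic-like neurons 12.2 (7.76 to 18.4) and Cajal-Retzius-like cells, the early-born neurons of the marginal zone, 3.08 (1.33 to 6.08). Among septal APs, the unassigned class had 15.1 CPM, subpallial-like cells 10.6, septal-like cells 7.92, pallial-like cells 1.94 and hem-like cells 1.23. BP-like cells were split. The cluster led by Shox2 held 34.9 CPM and that led by Neurog2 7.18. In the vesicle Pcdh8 ranged over the AP-like and neuron-like classes from 1.62 CPM (1.19 to 2.16) in pallial-like APs to 14.0 (12.2 to 15.9) in ventral pallial-like APs. The latter was above the 9.53 (8.52 to 10.6) of subpallial-like APs by more than the counting error and did not differ from the 12.6 (9.44 to 16.4) of GABAergic-like neurons by more than that error.

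Pcdh10, a homophilic adhesion protein with a WAVE-binding tail, had its highest level among named classes in neurons of the septal explants and in APs of the vesicle. The highest septal class was the septal glutamatergic-like neurons at 26.1 CPM (19.3 to 34.5), found in 19.4% of cells, beside region-free APs at 20.1 (17.5 to 22.8), and pallial-like APs had 4.60 (3.43 to 6.03). In the vesicle ventral pallial-like APs led with 79.3 CPM (75 to 83.7), followed by subpallial-like APs (51.8) and septal glutamatergic-like neurons (49.8, 31.9 to 74.1). Hem-like cells had 11.7 (10.0 to 13.5) in that library, below pallial-like APs at 33.1.

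Pcdh17, a synaptic adhesion protein in later life, was highest in BPs, neurons and endothelium of the vesicle. BP-like cells held 144 CPM (134 to 154), pallial glutamatergic-like neurons 180 (170 to 191), GABAergic-like neurons 117 (107 to 128) and septal-like APs 9.16 (7.97 to 10.5). Endothelium-like cells had 219 CPM (190 to 251), and Pcdh12, a protocadherin of endothelium outside the delta family, had 56.0 there. Within the GABAergic-like neurons the cluster of Lhx6 and Lhx8 had 188 CPM of Pcdh17 and that of Dlx6os1 22.8. Of the septal classes the hem-like APs were highest at 16.9 CPM (12.1 to 22.9), level with pallial (13), septal (11.2) and Cajal-Retzius-like neurons (12.3) within the intervals, and septal-like APs had 0.898 (0.448 to 1.61).

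Pcdh18 was highest in progenitors and mesenchyme. In septal AP-like classes it stood between 11.4 CPM (region-free) and 24.7 (hem-like, 18.8 to 31.7), in BP-like cells at 6.53, and in neuron-like classes between 0.532 and 2.81. Among vesicle classes mesenchyme- and pericyte-like cells led with 94.6 CPM (87.5 to 102), found in 27.1% of cells, while hem-like APs had 32.5 (29.7 to 35.5) and pallial glutamatergic-like neurons 3.62 (2.27 to 5.49). The erythroid-like reference was 2.08 (0.762 to 4.52) in the vesicle and 4.12 (0.849 to 12) in the septal explants, and the intervals of the other neuronal classes overlapped it, whereas Cajal-Retzius-like cells of the vesicle were above it at 15.3 (9.93 to 22.7).

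Pcdh19, the other X-linked member in which mutations cause an epilepsy that affects mainly girls, was the most frequent septal member. Pallial-like APs had 54.5 CPM (50.3 to 59.0), held by 32.8% of cells, region-free APs 47.9, septal-like APs 34.4, subpallial-like APs 24.5 (22.1 to 27.1) and GABAergic-like neurons 3.14 (1.15 to 6.84). The neuronal mean of 7.23 (5.82 to 8.89) lay within the interval of the erythroid-like reference, 9.60 (3.86 to 19.8). In the vesicle ventral pallial-like APs led with 202 CPM (196 to 209) and 46.6% of cells, differentiating subpallial-like cells had 172 (161 to 183) and hem-like cells 38.0 (34.9 to 41.2). Subpallial-like APs were far from uniform, at 257 CPM in the cluster led by Thsd4 with Gsx2 and 40.0 in that with Shh and Nkx2-1. In the septal Cajal-Retzius-like cells a cluster led by Ccno had 18.3 CPM of Pcdh19 and the cluster led by Lhx1 and Sncg 1.43, and Pcdh10 was arranged the other way, at 1.67 and 15.8.

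The first comparison asked which members separated neurons from APs. A gene was called where its CPM differed at least 2-fold, if both classes together gave 50 UMIs or more. In the septal explants 4 of 9 members were called higher in neuron-like cells, where the same rule called 17.7% of 12714 genes, and 2 of 9 higher in AP-like cells, against 17.0% of genes. In the vesicle 3 of 9 were higher in neurons (16.3% of 15931 genes) and 2 of 9 in APs (19.6%). Numbers of this size over 9 genes are description only. The median log2 fold of the members, neuron over AP, was 0.99 in the septal explants and 0.50 in the vesicle, where all genes had 0.04 and −0.08.

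Pcdh1, Pcdh9 and Pcdh17 were on the neuron side in both libraries. Pcdh1 was 6.33-fold (4.19 to 9.64) higher in septal neurons (4.90 against 0.775 CPM) and 22.3-fold higher in those of the vesicle (6.41 against 0.287 CPM). Pcdh17 was 3.70-fold (2.93 to 4.67) and 4.84-fold (4.57 to 5.12) higher. Pcdh9 was 2.26-fold (2.0 to 2.55) and 2.47-fold (2.41 to 2.53) higher. The call on Pcdh9 is lost in the septal explants where classes are set from marker UMIs (1.76-fold) and in the vesicle where doublets are kept (1.75-fold). Pcdh8 was higher in septal neurons (2.12-fold, 1.80 to 2.49) and below the mark in the vesicle (1.41-fold, 1.16 to 1.71).

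Pcdh18 was the member on the AP side in both, 6.76-fold (4.61 to 10.3) in the septal explants and 4.20-fold in the vesicle. Pcdh19 was 5.32-fold higher in septal APs (38.5 against 7.23 CPM), and in the vesicle 1.44-fold (125 against 86.8 CPM). Pcdh10 was called higher in APs of the vesicle (2.22-fold, 1.94 to 2.56) and stood higher in septal neurons (1.54-fold, 1.28 to 1.83). In the vesicle that call was lost under 4 of the alternatives, with ratios up to 0.77 neuron over AP. Pcdh7 (1.98-fold and 1.44-fold, neurons higher) and Pcdh11x (1.34-fold and 0.96-fold) were not called in either library. Septal Pcdh7 passed the mark without Cajal-Retzius-like cells (2.33-fold) and with differentiating subpallial-like cells counted as APs (2.03-fold).

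**Figure D3:**
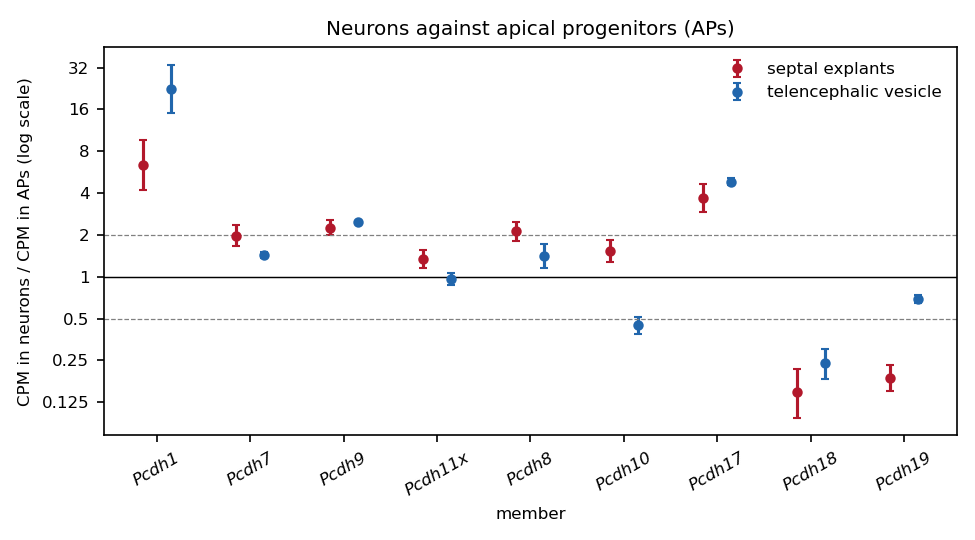
Ratio of CPM in neuron-like over AP-like cells (log axis) for each member in both libraries, with exact 95% intervals from the UMI counts; dashed lines mark 2-fold in either direction. Pcdh1, Pcdh9 and Pcdh17 lie above the upper line in both libraries, Pcdh18 lies below the lower line in both, and Pcdh10 lies on opposite sides of 1.

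Along a differentiation axis the members took different courses. Neural cells were ordered by log2 of the ratio of neuronal to AP marker UMIs and split into 10 bins of equal size, of 517 to 518 septal cells and 965 to 966 vesicle cells. Between the first and the last bin 3 members were at least 2-fold higher and 2 lower in the septal explants, where 18.2% of 10615 genes with at least 50 UMIs in both bins were higher and 15.7% lower. One of the 3, Pcdh1, had 1 and 33 UMIs in these bins, under that minimum. In the vesicle 3 were higher (16.4% of 12356 genes) and 1 lower (19.7%). With 5 bins it was 2 and 2, since Pcdh9 was then 1.86-fold higher and Pcdh10 2.41-fold lower. Pcdh18 and Pcdh19 were the lower ones in the septal explants. Pcdh18 went from 17.8 CPM in the first bin (15 to 20.9) to 12.4 in the seventh and 1.40 (0.641 to 2.66) in the last, and Pcdh19 from 45.8 to 26.0 to 4.36. In the vesicle Pcdh18 went from 25.5 to 2.92 CPM. Pcdh19 went there from 94.0 to its highest value, 138, in the third bin, its lowest, 69.8, in the ninth, and 92.3 in the last. Pcdh17 stood at 1.51 CPM in the seventh septal bin, 6.60 in the eighth and 12 in the ninth. In the same bins of the vesicle it stood at 31.4, 49.8 and 143 CPM. The BP gene Eomes was highest in the eighth septal bin (337 CPM, and 279 in the ninth) and in the ninth bin of the vesicle (314 CPM). Pcdh9 dipped before it was highest, from 21.5 to 5.74 (seventh bin) to 31.9 CPM in the septal explants and from 281 to 134 (eighth) to 951 in the vesicle. Pcdh8 was flat up to the eighth bin of the septal explants (7.45 to 10.5 CPM) and had 17.7 and 25.1 in the last bins. Pcdh10 went from 10.8 through 5.59 (seventh bin) to 16.2 in the septal explants and from 38.2 to 19.2 in the vesicle.

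**Figure D4:**
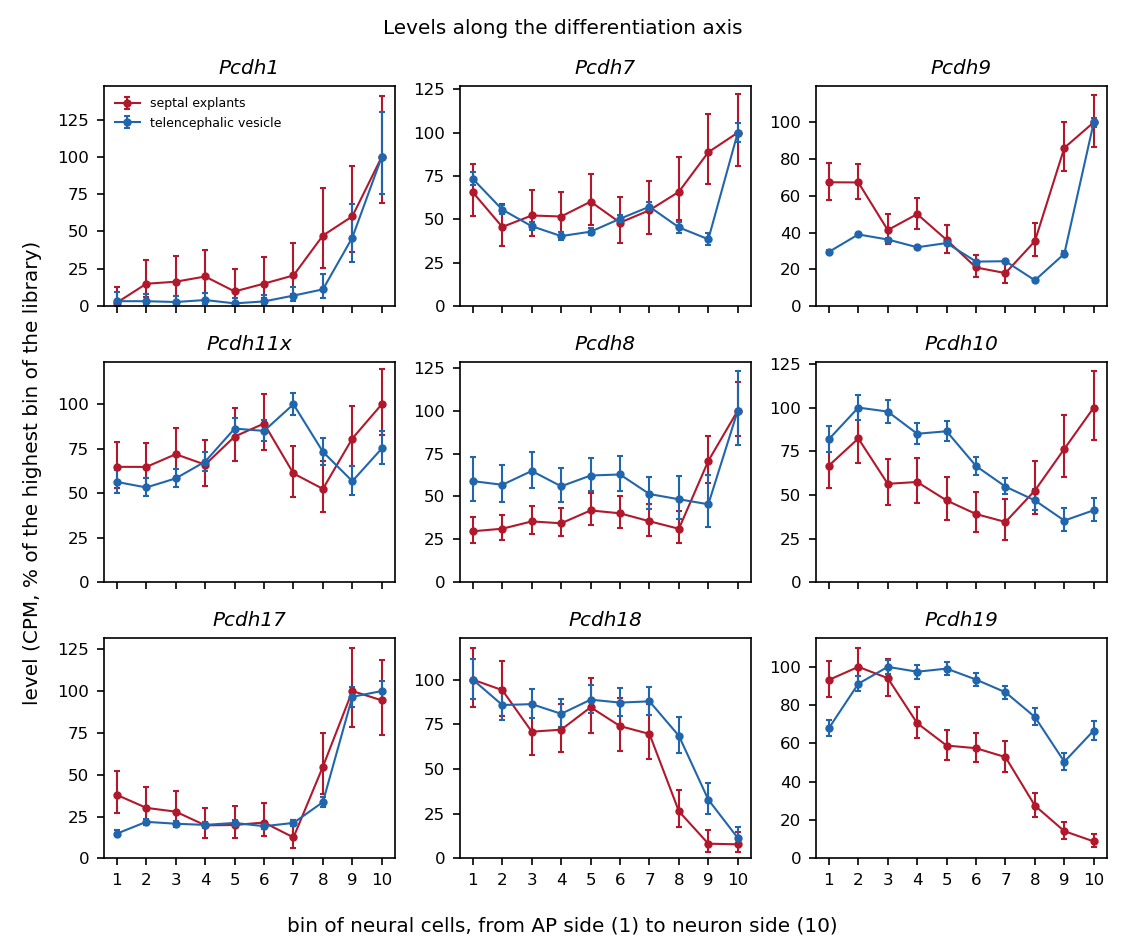
CPM of each member over 10 bins of neural cells of equal size, from the AP side (bin 1) to the neuron side (bin 10), as a percentage of the highest bin of the same library, with exact 95% intervals; septal explants in red, vesicle in blue. Pcdh18 ends lowest in both, at 1.40 and 2.92 CPM, and Pcdh17 is highest in the last bins of both, at 12 CPM (septal explants) and 143 CPM (vesicle) in the ninth.

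The second comparison set GABAergic-like against pallial glutamatergic-like neurons. In the septal explants 7 members reached the UMI minimum, of which 1 was higher in GABAergic-like neurons (3.27% of 8844 genes) and 4 in pallial glutamatergic-like neurons (6.49%). In the vesicle 8 reached it, with 0 higher in GABAergic-like neurons (4.74% of 10691 genes) and 3 in pallial ones (5.64%). Pcdh7 and Pcdh11x were on the pallial side in both: Pcdh7 12.6-fold (4.83 to 46.8) in the septal explants and 8.24-fold (6.77 to 10.1) in the vesicle, and Pcdh11x 3.27-fold and 2.98-fold. The septal GABAergic-like level of Pcdh7, given above, was below that of 3 UMIs in the septal erythroid-like class. The size of the septal fold of Pcdh7 is thus uncertain. The ratio of Pcdh7 in the vesicle, GABAergic over pallial, moved from 0.12 to as much as 0.48 under the alternatives. The call on Pcdh11x was lost in the septal explants with classes from marker UMIs (0.53) and in the vesicle with doublets kept (0.58). Septal pallial neurons also had more Pcdh17 (3.11-fold) and Pcdh19 (2.94-fold), and vesicle pallial neurons more Pcdh9 (2.47-fold). The call on Pcdh19 was lost at both other Leiden resolutions and with doublets kept, with a ratio of up to 0.69. As given above, the septal neuronal mean of Pcdh19 lay within the interval of the erythroid-like reference. Its neuronal levels there were thus not separable from that reference, which may itself hold neural RNA. Pcdh8 was the septal GABAergic member, at 3.31-fold (2.48 to 4.41). In the vesicle it was 1.34-fold (0.905 to 1.98), within counting error of no difference, and passed the mark in 2 of the alternatives. The members' median log2 fold, GABAergic over pallial, was −1.56 in the septal explants and −0.46 in the vesicle, against 0.01 and 0.07 for all genes.

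This comparison turns on which clusters count as pallial neurons. Of the 475 septal cells 376, and of the vesicle all 742, sat in clusters with Calb2 or Nhlh2, which Cajal-Retzius cells also express, among their leading genes, and Trp73, which defines those cells, stood at 4.29 and 2.08 CPM in the septal clusters led by Gm26872 and Tfap2e and at 1.81 in those of the vesicle, against 243 and 347 in Cajal-Retzius-like cells. Without these clusters the septal fold of Pcdh8 was 1.73, below the mark, and Pcdh17 and Pcdh19 did not reach the UMI minimum. The clusters also differed in level. Septal Pcdh8 was 30.6 CPM in the cluster led by Neurod6, 6.07 in that led by Gm26872 and 20.3 in that led by Tfap2e, and Pcdh7 64.9, 13.2 and 18.8. In the vesicle the cluster led by Gm13404 had 1521 CPM of Pcdh9 and that led by Gm34907 339, while Pcdh17 was at 136 and 268.

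The third comparison set subpallial-like against pallial-like APs. Of the members 8 reached the UMI minimum in the septal library, 1 higher in subpallial-like APs (4.66% of 11022 genes) and 2 in pallial-like APs (2.85%). In the vesicle 8 did, with 3 higher in subpallial-like (6.31% of 13905 genes) and 0 in pallial-like APs (3.45%). Pcdh8 was called higher in subpallial-like than pallial-like APs in both, 5.46-fold (3.49 to 8.94) and 5.87-fold (4.30 to 8.19). The septal value was 1.27 where classes were set from marker UMIs and 1.29 with doublets kept, and that of the vesicle was 2.21 with classes from marker UMIs. The level of Pcdh8 in septal pallial-like APs, given above, was below that of 3 UMIs in the septal erythroid-like class. The size of that septal fold is thus uncertain. Ventral pallial-like and region-free APs were in neither group. As given above, Pcdh8 was higher in vesicle ventral pallial-like APs and in septal region-free APs than in the subpallial-like APs of the same library. In the vesicle Pcdh11x (2.17-fold, 1.98 to 2.38) and Pcdh7 (2.04-fold, 1.91 to 2.18) were also called, and on the pallial side in the septal explants Pcdh19 (2.23-fold, 1.96 to 2.54) and Pcdh9 (2.06-fold, 1.61 to 2.63). The calls on Pcdh7 and the septal Pcdh9 were lost in 6 and 4 of 8 alternatives, and that on Pcdh11x at both other Leiden resolutions (1.86 and 1.85). Pcdh9 was not called in the vesicle, at 0.54 subpallial over pallial. It was called on the pallial side there in 4 of 8 alternatives, with a ratio down to 0.25. The members' median log2 fold, subpallial over pallial, was −0.03 and 0.35, and that of all genes 0.01 and 0.03.

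Outside the neural lineage, which only the vesicle could show, 2 of 9 members were higher in the non-neural cells (13.5% of 16550 genes) and 4 in the neural cells (15.0%). Pcdh1 was 6.18-fold higher (4.28 to 8.78) in the non-neural cells and Pcdh18 3.58-fold (3.29 to 3.89). Of the 44 Pcdh1 UMIs in those cells, 28 came from endothelium-like cells, and with mesenchyme- and pericyte-like cells alone the fold was 2.98. Pcdh8 (5.80-fold), Pcdh10 (5.07-fold), Pcdh19 (3.06-fold) and Pcdh9 (2.86-fold) were higher in neural cells. In 487 mesenchyme- and pericyte-like cells at equal depth, no cell held a UMI of Pcdh8, which allows (as 3 cells) a share of up to 0.616% of cells with a UMI at this depth. Pcdh7 was 1.35-fold higher in the non-neural cells (118 against 87.4 CPM), below the mark. The value of Pcdh17, 27.8 against 41.8 CPM, joined 6.93 CPM in mesenchyme- and pericyte-like cells and 219 in endothelium-like cells. The median log2 fold of the members, non-neural over neural, was −0.91, and that of all genes −0.09.

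Most cells held 1 member or none at these depths. Of 4776 septal neural cells 773 held 2 or more, 16.2% (15.1 to 17.3), where members distributed independently within clusters would give 15.7%. In the vesicle it was 3403 of 9500, 35.8% (34.9 to 36.8), with 35.4% if independent. Other counts of the vesicle departed from independence by more than the counting error. No member was held by 27.8% (26.9 to 28.8), against 25.9% if independent, and exactly 1 by 36.3% (35.4 to 37.3), against 38.7%. Cells with 3 or more made up 11.7% (11.02 to 12.33), against 10.7%. The septal intervals for these counts included the independent share. The cause was not tested. The share with 2 or more members followed the levels by class. In the septal explants it was 28.0% in pallial glutamatergic-like neurons, 19.5% in GABAergic-like neurons and 11.51% in septal glutamatergic-like neurons. It was 7.43% in Cajal-Retzius-like and 5.86% in BP-like cells there. The same classes of the vesicle had 58.6%, 27.3%, 44.2%, 12.8% and 26.3%. No septal and 1.12% of vesicle erythroid-like cells held 2 or more.

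Most pairs of members were found together about as often as independence within clusters would give. Of the 36 pairs, 33 in the septal explants and 32 in the vesicle were expected in at least 5 cells from their shares within clusters. In the septal explants Pcdh7 and Pcdh11x were together in 49 cells, where 33.9 were expected, a ratio of 1.45 (1.07 to 1.91), and Pcdh9 and Pcdh18 in 26 where 40.2 were expected, 0.65 (0.42 to 0.95). The other 31 overlapped 1. With clusters ignored, the ratio of observed to expected cells was 1.73 for Pcdh7 and Pcdh11x in the septal explants and 1.47 in the vesicle, and 2.99 for septal Pcdh1 and Pcdh8. In the vesicle 4 pairs were above 1: Pcdh10 and Pcdh17 (1.2, 1.01 to 1.41), Pcdh7 and Pcdh11x (1.18, 1.03 to 1.34), and both Pcdh9 with Pcdh19 and Pcdh7 with Pcdh9 (1.09), and 28 overlapped 1. The lowest septal ratios were 0.55 (Pcdh17 and Pcdh18), 0.65 (Pcdh9 and Pcdh18) and 0.70 (Pcdh7 and Pcdh17), and the highest 1.61 (Pcdh1 and Pcdh8), 1.45 and 1.28 (Pcdh1 and Pcdh9). In the vesicle they were 0.40 (Pcdh1 and Pcdh7), 0.70 (Pcdh8 and Pcdh18) and 0.75 (Pcdh1 and Pcdh19) and 1.36 (Pcdh8 and Pcdh10), 1.24 (Pcdh7 and Pcdh8) and 1.2. With 36 pairs the intervals are not adjusted, and another random thinning gave a different set of septal pairs above 1 (Pcdh9 with Pcdh10 and Pcdh11x with Pcdh17), whereas Pcdh7 with Pcdh11x and Pcdh9 with Pcdh19 stayed above 1 in the vesicle. With doublets kept, Pcdh7 with Pcdh11x was counted above 1 in neither library. At 2 or more UMIs, where fewer pairs were expected in enough cells, neither of these 2 pairs was counted above 1 in the vesicle. Within AP-like cells 0 septal and 1 vesicle pair, within neurons 2 and 1 pairs, and within non-neural cells of the vesicle 1 pair (Pcdh7 and Pcdh9, 2.21) were above 1.

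**Figure D5:**
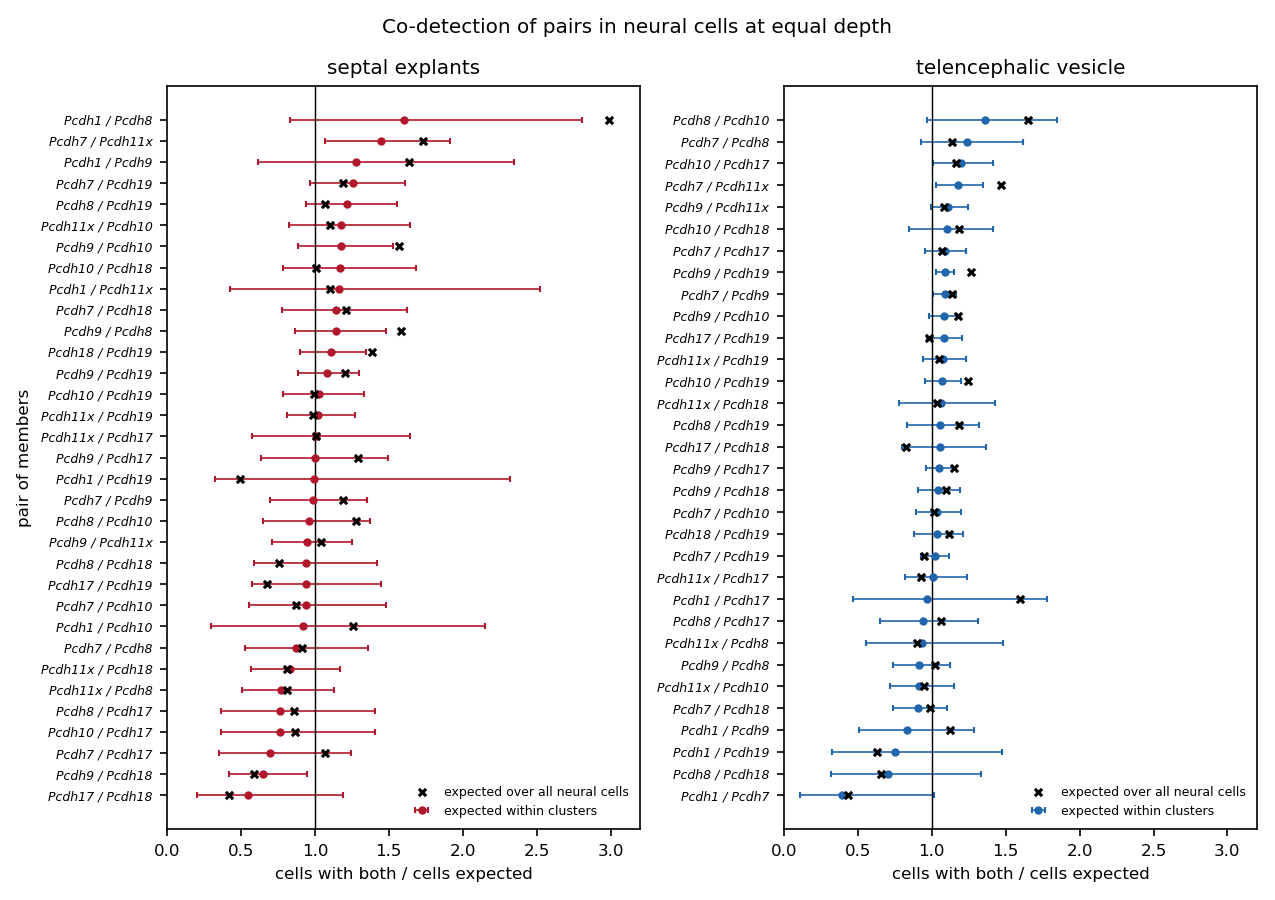
Cells holding both members of a pair over the number expected from their shares within clusters, in neural cells at equal depth, with exact 95% intervals, for pairs expected in at least 5 cells (33 septal, 32 vesicle); crosses use the number expected over all neural cells, clusters ignored. Most intervals include 1; Pcdh7 with Pcdh11x is above 1 in both libraries, at 1.45 and 1.18.

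Over clusters, members' levels followed each other in part. As a description over 29 clusters in each library, which share a library and its depth, the Pearson correlation of log2(CPM + 1) was 0.53 and 0.71 for Pcdh7 and Pcdh11x, 0.65 and 0.50 for Pcdh8 and Pcdh10, 0.71 and 0.27 for Pcdh18 and Pcdh19 and 0.15 and 0.73 for Pcdh9 and Pcdh19 (septal explants, vesicle). The same measure over 12788 genes gave the patterns most like each member's, by the lower of both libraries' correlations. Pcdh18 was followed by Gja1 (0.93 and 0.87), the gap junction protein of radial progenitors, Tns3 and Ephb4. Pcdh17 was followed by Enc1 (0.78 and 0.83), Bcar1 and Tecpr1, and Pcdh19 by Lrig1 (0.75 and 0.77), Prkd1 and Hs6st2. Pcdh9 had Efnb2 (0.85 and 0.71), an ephrin ligand, with Bcl11a and Gnao1. Pcdh1 had Arfgap3 (0.74 and 0.74), Tubb2a and Rusc1, Pcdh7 had Ptprd (0.74 and 0.74), Macrod2 and Clcn5, and Pcdh11x had Gpr137c (0.76 and 0.76), Sox5 and Tacc2. The weakest likeness was that of Pcdh8, with Mir124-2hg (0.69 and 0.67), Ttc9b and 1500009C09Rik, and Pcdh10, with Atxn1 (0.68 and 0.60), Fam131b and Fam84a.

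The same comparisons were made for 3 lists of related genes. Of 3 other non-clustered protocadherins, Pcdh15, a gene of hair cells and photoreceptors, was higher in neuron-like than AP-like cells in both libraries (59.6-fold, from 84 and 6 UMIs, and 6.37-fold), Pcdh20 in the vesicle (17.9-fold, 10.0 to 33.0), and Pcdh12 had 56 UMIs in non-neural and 0 in neural cells. Pcdh15 was also higher in pallial than GABAergic-like neurons (2.41-fold) and in pallial-like than subpallial-like APs (3.94-fold) of the vesicle. In the septal explants none of them reached the UMI minimum in these comparisons. Of the 14 partner genes, which include N-cadherin (Cdh2), the WAVE complex and catenin beta-1 (Ctnnb1), the neuron and AP comparison called 1 in each direction in the septal explants and 1 in the vesicle, and Cyfip2, a WAVE subunit, was on the neuron side in both (3.78-fold and 2.44-fold). The partners' median log2 fold there was −0.02 and −0.17. Dab1, the reelin adaptor, was on the AP side in the septal explants (4.24-fold). GABAergic-like against pallial neurons called 1 and 1 of them in the septal explants and 0 in the vesicle, subpallial-like against pallial-like APs 0 and 1, and 2 and 1, and non-neural against neural cells 2 and 3. Of the 7 classical cadherins, which bind by a calcium-dependent homophilic bond, the neuron and AP comparison called 1 and 1 in the septal explants and 0 and 2 in the vesicle, and 4 of the 5 septal cadherins that reached the UMI minimum were higher in pallial than in GABAergic-like neurons (median log2 fold −2.03). In the vesicle this last was 1 on either side. Subpallial-like against pallial-like APs called 1 and 1, and 2 and 1, and non-neural against neural cells 1 and 4 of them, with Cdh11 8.11-fold higher in the non-neural cells.

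Both X-linked members were compared by Xist, the RNA that coats the inactive X chromosome in female cells. Cells with at least 3 Xist UMIs were set against cells with none, with the UMIs expected from depth and cluster. In the vesicle Pcdh11x had 1.15 times the UMIs expected (1.07 to 1.22), at the 91.8 percentile of all genes, and Pcdh19 1.03 (0.994 to 1.06), where the median gene had 0.999. Autosomal Pcdh10 was about as far from 1 on the other side, at 0.859 (0.809 to 0.912), the 10.8 percentile. In the septal explants all 9 members were above 1, between 1.10 and 1.43, where the median gene had 1.09. The Xist groups differed there in more than sex, since 73.8% of the cells with Xist held a UMI of the reporter YFP, which only the E11.5 embryos carry, and 60.7% of those without. Xist and age cannot be told apart in that library. In the vesicle, a pool of 3 embryos from 2 litters, Xist cannot be told apart from embryo, litter or age.

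The Dbx1 tracer offered a last comparison, in the septal explants. The 403 cells with a UMI of tdTomato, which marks descendants of Dbx1-expressing cells, were set against the other 4981, at the depth and clusters of the former. Pcdh19 had 0.72 times the UMIs expected (0.59 to 0.87), while the intervals of the other 8 members included 1. Pcdh8, the member the study turns on, was at 0.78 (0.58 to 1.03) and Pcdh17 at 1.30 (0.92 to 1.78). The tracer was present only in the E12.5 embryos, so tracing and age cannot be told apart, and YFP was found in 27.8% of the traced cells and 73.3% of the others.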

How the data were processed

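Droplet libraries of 10x Genomics (kit versions 2 and 3.1, about 10000 and 20000 input cells) were read from the counts deposited by the authors, whole UMIs per gene and barcode without normalisation. The submitters' processing notes name mm10 with Cell Ranger 2.1.1 for the septal explants and 7.1.0 for the vesicle, and the vesicle's intron setting is not given in the sources used here. Barcodes more than 3 median absolute deviations (scaled to a normal distribution) above or below the median mitochondrial share were removed (383 and 1812). Scrublet doublets were removed as well (60 and 713, 1.10% and 5.72%, where loading gives 4.36% and 9.98%). Cells were clustered with scanpy 1.11.5 (2000 variable genes, 30 components, Leiden resolution 1.5), leaving out all protocadherins, cell cycle, reporter, sex and mitochondrial genes. A cluster took a name from at least 3 markers held by at least 5% of its cells and at least 1.5 times their mean. After the clusters were seen, Trp73 was required for Cajal-Retzius-like and Gad1 for GABAergic-like neurons, and progenitor clusters on the neuronal side of the axis were set apart as differentiating. Shallow clusters, and a cluster led by Tac1, stayed unnamed.

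CPM were summed UMIs per class, with exact Poisson, Clopper-Pearson and conditional binomial intervals (95%, SciPy 1.17.1). Calls needed 2-fold and 50 UMIs, and the scripts were tested on simulated data. The members, lists and tests were chosen with earlier results of these data known. Genes named are the members, for each the 3 genes most like it over clusters, and the lists. The alternatives changed clustering, doublets, scaling, thresholds, thinning and class definitions.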

Additional observations from a re-analysis of the deposited data

Results flagged for a closer look

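Pcdh10 was ordered differently between neuron-like and AP-like cells in the libraries, with the interval of the ratio on opposite sides of 1. The ratio, neuron over AP, was 1.54 in septal explants and 0.45 in the vesicle. That of Pcdh11x was 1.34 and 0.96, and its interval in the vesicle (0.866 to 1.06) included 1. The difference between the libraries was not tested, since each is 1 sample. They also differ in dissected region, age, kit and Cell Ranger version, which cannot be told apart. Septal glutamatergic-like neurons made up 143 of 1002 septal neuron-like cells and 53 of 1600 in the vesicle, and they held the highest CPM of Pcdh10 among the named neuron-like classes of each library, 26.1 and 49.8. Their part in the ratio was not tested.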

How the results depend on the processing

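Over all alternatives, 434 values of the member folds stayed within the main counting interval and 114 others moved beyond it. The 434 include the values without a UMI minimum and at the 1.5-fold mark. These alternatives change the call and leave the fold itself as it was, so their values could not move. Of the 31 called folds 19 kept their call throughout (the 1.5-fold mark aside), 11 lost it in at least 1 alternative and 1 only fell under the UMI minimum, and of the 27 folds not called 11 were called somewhere. Of those 27, 4 crossed 1, of which septal Pcdh10 in subpallial-like over pallial-like APs moved furthest, from 1.51 to 0.64 with classes from marker UMIs and 3.72 at Leiden resolution 0.8. The called fold that crossed 1 was Pcdh7 in subpallial-like over pallial-like APs of the vesicle, 0.97 with classes set from marker UMIs. The Pcdh7 and Pcdh11x ratio in the septal explants was 0.77 at 0.5 times the thinning depth and 0 at 2 or more UMIs, where it was expected in fewer than 5 cells. For the numbers of called members and of pairs, only changes by a factor above 1.5 are listed next. Smaller ones are left out, such as 3 to 2 for subpallial APs of the vesicle at both other Leiden resolutions. The number of called members changed from 5 to 3 in the septal GABAergic comparison without the clusters led by a Cajal-Retzius marker, where 5 members reached the UMI minimum, and from 3 to 6 in the septal subpallial comparison at 1.5-fold. In the vesicle it changed from 5 to 3 for neurons and APs with doublets kept, from 3 to 5 for GABAergic neurons at Leiden resolution 0.8 and with classes from marker UMIs, and from 3 to 5 for subpallial APs with doublets kept and at 1.5-fold. Pairs above 1 numbered 1 in the septal explants and became 2 at 0.5 times the depth, with another seed and at resolution 0.8. At 2 or more UMIs it was 0, but no septal pair was then expected in enough cells to be counted. In the vesicle 4 became 2, 2 and 8 at 0.5 times the depth or another seed, at 2 or more UMIs and at resolution 0.8. The share of cells with 2 or more members was 6.11% and 18.0% at 0.5 times the depth, 0.607% and 6.56% at 2 or more UMIs and, in the vesicle, 36.9% with doublets kept, and members held by at least 5% of neural cells fell from 7 to 0 and 3 at 2 or more UMIs. Where values moved, the cause was not tested beyond the alternative itself. Leaving out the clusters with a Cajal-Retzius marker left no pallial neuron in the vesicle and was not run there. No paired analysis was possible because each group is 1 library. Depth limits Pcdh1 most, with 109 and 180 UMIs in all.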

Other observations

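In the vesicle 137 cells formed a cluster that met no name, led by Tac1 with 782 CPM of Gad2. They held 307 CPM of Pcdh7, 116 of Pcdh10 and 38.0 of Pcdh8, each above the 25.4, 16.3 and 12.6 CPM of the GABAergic-like neurons of that library. With these cells counted as GABAergic-like neurons, the ratio of Pcdh10 to pallial glutamatergic-like neurons passed the 2-fold mark, at 2.62, that of Pcdh8 was 1.98, and that of Pcdh7 was 0.44 in place of 0.12.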
